A study of Saccharomyces cerevisiae with 6 samples.

Results

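The pre-mRNA splicing machinery was followed at the mRNA level in yeast cells with reduced Hsp90, through 53 genes for spliceosome components among the 6377 open reading frames (ORFs) on the array. The 53 genes were taken by their standard names, as 23 PRP factors (pre-mRNA processing genes), 7 Sm proteins, 7 LSm (Sm-like) proteins and 16 other proteins of the small nuclear ribonucleoproteins (snRNPs) and of the Prp19 complex. The rule that picks them uses names only. Each gene was matched through its systematic ORF name, and all 53 had a row. RNA of dox-treated cells (5 μg/ml doxycycline, 11 h) and RNA of untreated cells of the same strain were hybridized together on each of 6 arrays. All cells were R1158 cells of the genotype TETp-HSC82 hsp82Δ arg4Δ lys5Δ car2Δ::URA3, in log phase. In this strain HSP82 is deleted and a dox-repressible promoter drives HSC82, the only remaining Hsp90 gene, while the arg4, lys5 and car2 deletions serve amino acid labeling and are carried by treated and untreated cells alike. The arrays came from 2 cultures with 3 technical arrays each, and dox went to the light-labeled cells in culture 1 but to the heavy-labeled cells in culture 2, so the number of independent replicates is 2.

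Splicing removes introns from pre-mRNA through a pair of transesterification steps, carried out by the spliceosome, which assembles anew on each intron from the U1, U2, U4, U5 and U6 snRNPs. The Sm proteins form a ring on the U1, U2, U4 and U5 snRNAs, and the LSm proteins form a similar ring on the 3′ end of U6. RNA helicases, several of which carry PRP names, drive the rearrangements between assembly stages, and the Prp19 complex joins as the spliceosome is activated. In budding yeast few genes have introns, but these include many highly expressed ribosomal protein genes.

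Every value below is a log2 ratio of dox-treated over untreated cells, a difference and not a level, so 0 means no difference and 0.58 is 1.5-fold higher. After averaging the technical arrays of a culture, limma tested whether the 2 culture means differed from 0, over 6290 genes. A gene counted as misregulated when its mean lay beyond 1.5-fold and the unadjusted p was below 0.05. The form of this criterion was taken from the methods. HSC82 (YMR186W), the repressed gene, had a mean log2 ratio of −5.99 (standard error 0.16, limma adjusted p = 0.000658 by Benjamini-Hochberg) and was lower on 6 of 6 arrays. Dyes were not swapped between treated and untreated RNA, and every array held the TETp-HSC82 strain. A dye bias of one gene, or a response to dox itself, therefore cannot be told apart from a response to low Hsp90. The ratios are relative to the bulk of genes on the same array (array medians between −0.03 and 0.02), so a change shared by all mRNA would not appear in them.

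None of the tested splicing genes met the criterion for misregulation in low-Hsp90 cells. Of the 52 members with values in both cultures, 0 passed the criterion in limma, against 10.5% of all 6290 genes tested, of which 5.74% were higher and 4.74% lower. The fold alone gave the same count, with 0 of 52 member means beyond 1.5-fold against 10.9% of all genes. Without a fold threshold, 9 of 52 members (17.3%) had an unadjusted p below 0.05, against 29.1% of all genes. Of these, 4 were higher (7.69% of members, against 14% of all genes) and 5 were lower (9.62% of members, against 15.2% of all genes). After Benjamini-Hochberg adjustment 0 members remained below 0.05 at any fold, and the lowest adjusted p from limma was 0.0802, that of PRP43. Over the 52 members the median of the means was −0.01, the same as the −0.01 over all genes, with 25 members above 0 and 27 below.

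The members also differed little from each other. Their means ran from −0.46 for PRP43 (0.729-fold) to 0.40 for SMD2 (1.32-fold). The SD of the means was 0.20 over the members and 0.43 over all genes, whose means ran from −6.30 to 3.90. The median size of the mean, with the sign ignored, was 0.13 over the members and 0.20 over all genes. It was 0.26 over the 7 Sm genes, above that of all genes. A mean over 0.25 in size was found for 11 of 52 members (21.2%), against 41.4% of all genes, and a mean over 0.5 for 0 members, against 15.2% of all genes. These shares describe the genes, which are not independent replicates, and no test was made of them.

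**Figure D1:**
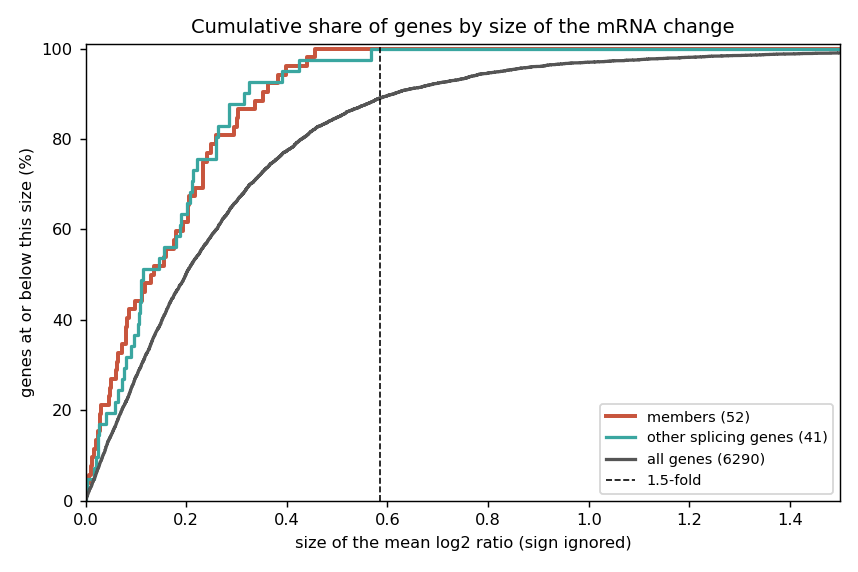
Cumulative share of genes (y axis, %) at or below a given size of the mean log2 ratio with the sign ignored (x axis), for 52 splicing members, 41 other splicing genes and all 6290 tested genes; the dashed line marks 1.5-fold. The members' curve reaches 100% before the 1.5-fold line, while 10.9% of all genes lie beyond it.

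The size of change that the arrays could resolve was read from the 95% confidence intervals of the means in limma. For 42 of 52 members (80.8%), the whole interval lay within 1.5-fold of no change in either direction, against 59.8% of all genes. The other 10 were PRP8, PRP18, PRP42, PRP43, PRP45, SMD2, SMD3, SME1, LSM5 and CUS1, whose intervals reached past 1.5-fold on one side. The widest reach downward was that of PRP18 (−0.76) and the widest upward that of SMD2 (0.72). The median interval of a member extended 0.30 to either side of its mean, against 0.31 over all genes. With 2 culture means, limma draws the variance of each gene largely from all genes. The shares within 1.5-fold therefore mainly follow the size of the means. For the 10 genes named above, the interval from 2 cultures still held changes of more than 1.5-fold.

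**Figure D2:**
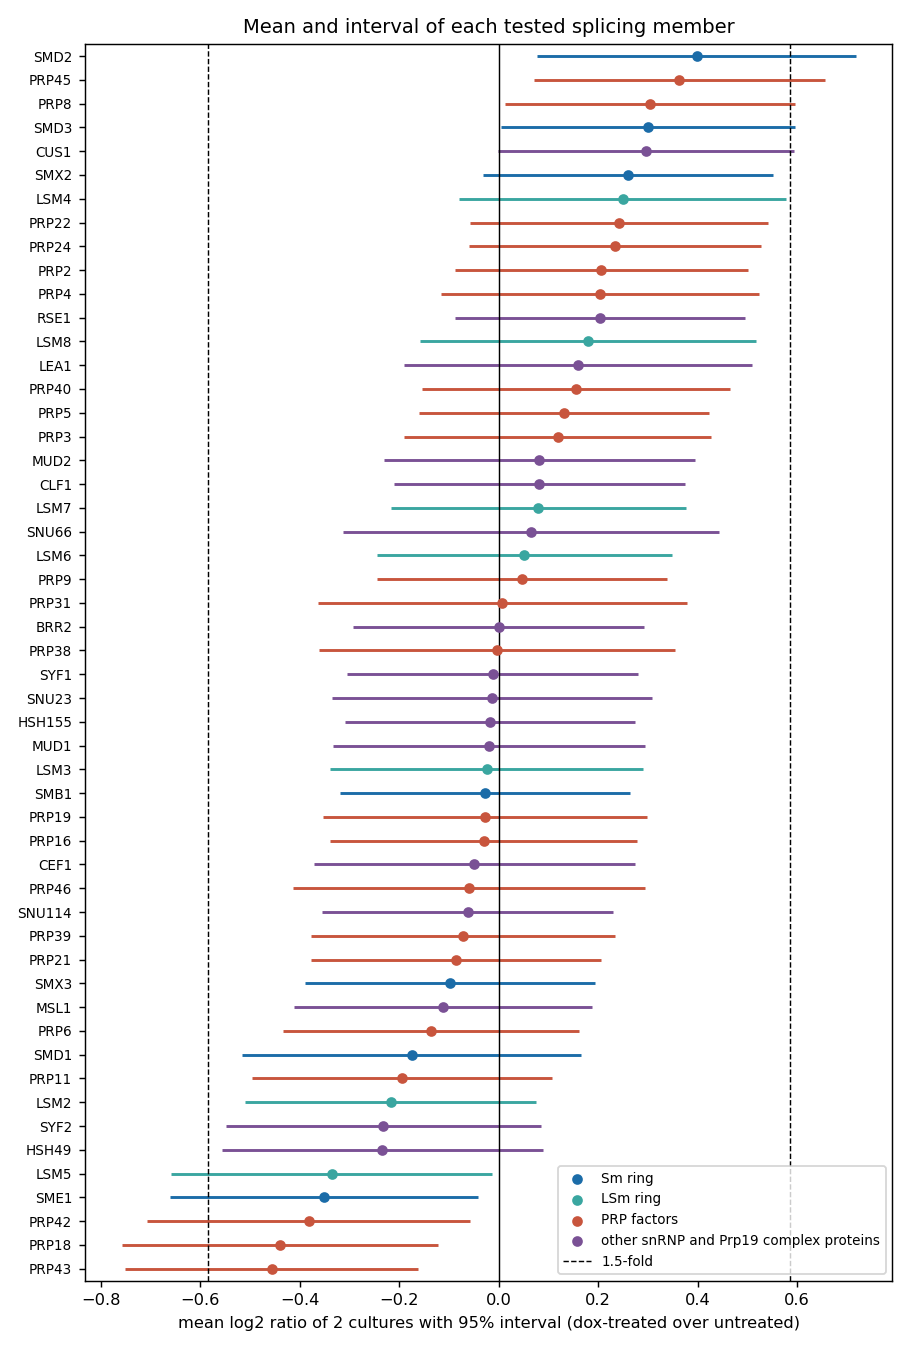
Mean log2 ratio of the 2 cultures (points) with its 95% confidence interval from limma (bars) for the 52 tested members, colored by class and ordered by the mean; dashed lines mark 1.5-fold. All points lie between the dashed lines, and 42 of the 52 bars do so over their whole length.

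The direction of a member was shared by the arrays about as often as that of any gene, or less. In 21 of 52 members (40.4%) the ratio had the same sign on all 6 arrays, against 47% of the 6153 genes with 6 values. It was above 0 on all 6 arrays for 12 members (23.1%, against 23.6% of all genes) and below 0 on all 6 for 9 (17.3%, against 23.4% of all genes). Across the 52 members the arrays correlated with Pearson's r of 0.50 to 0.87 within a culture (6 pairs) and of 0.44 to 0.64 between cultures (9 pairs). Technical arrays of a culture share their RNA source, and the members are genes and not independent replicates.

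**Figure D3:**
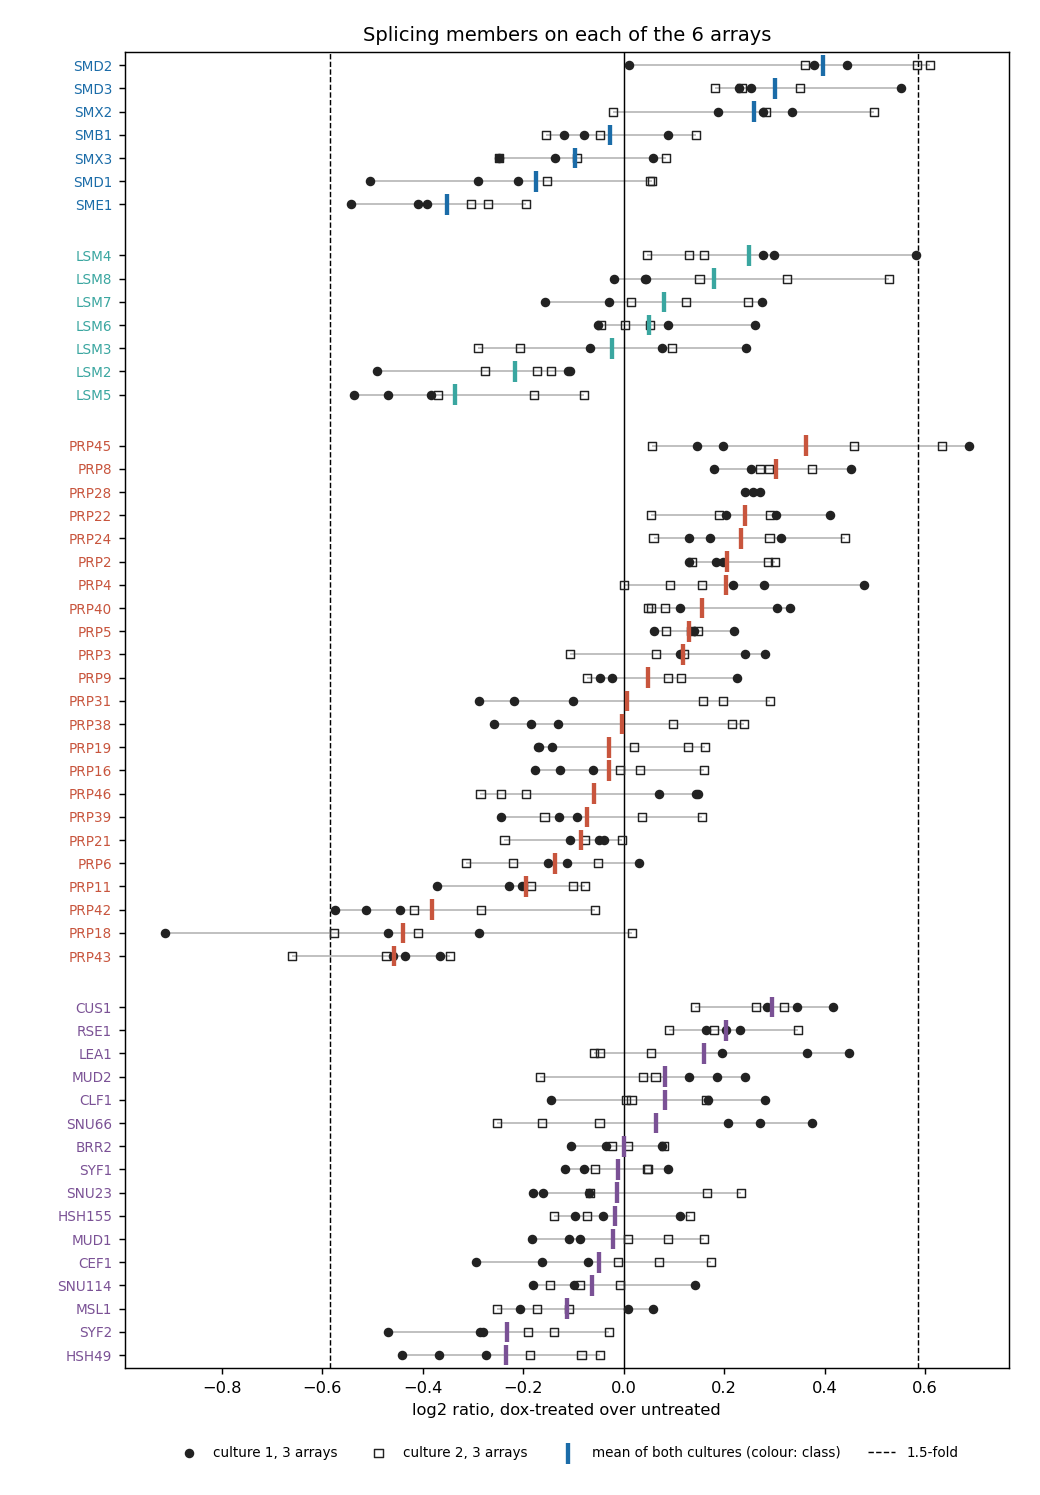
Log2 ratio of dox-treated over untreated cells (x axis) on each array for the 53 members, grouped by class (label color) and ordered by the mean; filled circles are the 3 arrays of culture 1, open squares the 3 arrays of culture 2, colored bars the mean of both cultures and dashed lines 1.5-fold. PRP28 has values in culture 1 only and no mean, and no other member's mean reaches a dashed line although single arrays of SMD2, PRP18, PRP43 and PRP45 do.

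Within the Sm ring the 7 genes were spread to both sides of 0, from −0.35 to 0.40, and their median was −0.03. SMD2 (YLR275W), which encodes SmD2, had log2 ratios of 0.38, 0.01 and 0.44 in culture 1 and 0.61, 0.36 and 0.58 in culture 2. It was thus higher on every array, near 0 on 1 of them, and its mean was 0.40 (standard error 0.13, limma adjusted p = 0.118). SmD2 pairs with SmD1 during ring assembly, and SMD1 (YGR074W) had −0.29, −0.51 and −0.21 in culture 1 and −0.15, 0.06 and 0.05 in culture 2. SMD1 was therefore lower in culture 1 and at or around 0 in culture 2, with a mean of −0.17 (limma adjusted p = 0.436). SMD3 (YLR147C), for SmD3, had 0.23, 0.25 and 0.55 in culture 1 and 0.35, 0.23 and 0.18 in culture 2. All 6 of its values were above 0, and the cultures overlapped (mean 0.30, limma adjusted p = 0.167). Its partner SMB1, for SmB, had values on both sides of 0, between −0.15 and 0.14, and a mean of −0.03.

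The third assembly unit of the ring consists of SmE, SmF and SmG. SME1 (YOR159C), for SmE, had −0.41, −0.39 and −0.54 in culture 1 and −0.27, −0.30 and −0.19 in culture 2. It was lower on every array, and each value of culture 1 lay below those of culture 2 (mean −0.35, standard error 0.12, limma adjusted p = 0.138). SMX3, for SmF, had a mean of −0.10 with arrays between −0.25 and 0.08. SMX2 (YFL017W-A), for SmG, had 0.28, 0.19 and 0.33 in culture 1 and 0.50, −0.02 and 0.28 in culture 2. It was higher on 5 of 6 arrays, with a mean of 0.26 (limma adjusted p = 0.205). Subunits that join the same unit thus had means of opposite sign, but SMD1, SMB1 and SMX3 had arrays on both sides of 0. The differences between genes were not tested.

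The LSm ring had a median of 0.05, from −0.34 for LSM5 to 0.25 for LSM4. Lsm2 to Lsm7 are shared between the nuclear ring that binds U6 and a cytoplasmic ring that acts in mRNA decay, whereas Lsm8 belongs to the nuclear ring only. LSM5 (YER146W) had −0.47, −0.54 and −0.38 in culture 1 and −0.08, −0.37 and −0.18 in culture 2. It was lower on all 6 arrays, with each array of culture 1 below those of culture 2, and its mean of −0.34 (standard error 0.13) had a limma adjusted p of 0.161. An ORF on the opposite strand, YER145C-A, overlaps LSM5 in the reference annotation, and whether the probe tells the strands apart was not tested. LSM4 (YER112W) had 0.28, 0.30 and 0.58 in culture 1 and 0.05, 0.13 and 0.16 in culture 2. It was higher on all 6 arrays, and the cultures did not overlap (mean 0.25, limma adjusted p = 0.266). LSM2 was lower on all 6 arrays with a mean of −0.22, and LSM3 had values on both sides of 0 with a mean of −0.02.

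LSM8 (YJR022W), the subunit particular to the nuclear ring, had −0.02, 0.04 and 0.05 in culture 1 and 0.53, 0.15 and 0.33 in culture 2. Culture 1 was at 0 and culture 2 was higher, and the mean over both was 0.18 (limma adjusted p = 0.422). LSM1, which replaces Lsm8 in the cytoplasmic ring and is not among the 53, had a mean of −0.18. LSM7 and LSM6 had means of 0.08 and 0.05.

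The PRP factors had the widest range of the classes, −0.46 to 0.36, with a median of 0.00 over the 22 tested. By role, the helicases had the gene furthest below 0. PRP43 (YGL120C) encodes the helicase that takes apart the intron lariat spliceosome and also acts in ribosome biogenesis. Its log2 ratios were −0.37, −0.46 and −0.44 in culture 1 and −0.66, −0.47 and −0.34 in culture 2. It was lower on all 6 arrays, the cultures overlapped, and the mean was −0.46 (standard error 0.12, 95% interval −0.75 to −0.16, limma adjusted p = 0.0802). The remaining helicases lay near or above 0. PRP22 (YER013W), which releases the spliced mRNA, had a mean of 0.24 and was higher on all 6 arrays, as were PRP2 (0.21), which remodels the spliceosome for the first step, and PRP5 (0.13), which helps the U2 snRNP onto the branch site. PRP16, which acts between the steps, had −0.03. PRP28 (YDR243C), which displaces U1 from the 5′ splice site, had 0.26, 0.24 and 0.27 in culture 1 and no value in culture 2, so it could not be tested. BRR2 (YER172C), the helicase that unwinds U4 from U6, averaged −0.02 in culture 1 and 0.02 in culture 2, and its interval ran from −0.29 to 0.29 around 0.00.

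Of the 11 members of the U4/U6.U5 tri-snRNP and factors that work with it, 6 had means above 0 and 5 below, with a median of 0.01. PRP8 (YHR165C), the scaffold of the catalytic center, had 0.25, 0.18 and 0.45 in culture 1 and 0.29, 0.27 and 0.37 in culture 2. All arrays were above 0 and the culture means were nearly the same, 0.29 and 0.31, yet the mean of 0.30 (standard error 0.12) had a limma adjusted p of 0.161. PRP18 (YGR006W), a factor of the second step, was the lowest of the group with −0.47, −0.29 and −0.91 in culture 1 and −0.58, 0.02 and −0.41 in culture 2. Its arrays of 1 culture spread more widely than the culture means differed, and 1 of 6 arrays was above 0 (mean −0.44, limma adjusted p = 0.0946). PRP24, which anneals U4 to U6, had a mean of 0.23 and was higher on all 6 arrays. PRP3 and PRP4, proteins of the U4/U6 snRNP, had means of 0.12 and 0.20. PRP6, which holds the tri-snRNP together, had −0.14, SNU114, the GTPase of the U5 snRNP, had −0.06, and SNU23, which joins with the tri-snRNP, had −0.01.

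Among U1 snRNP proteins, which recognize the 5′ splice site, PRP42 (YDR235W) had −0.57, −0.51 and −0.45 in culture 1 and −0.06, −0.42 and −0.28 in culture 2. It was lower on all 6 arrays, each array of culture 1 lay below those of culture 2, and its mean was −0.38 (standard error 0.13, limma adjusted p = 0.13). The partner protein Prp39 had an mRNA mean of −0.07. PRP40, which contacts the branch point binding proteins, was higher on all 6 arrays with a mean of 0.16, and MUD1, another U1 protein, had −0.02.

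The 9 U2 snRNP proteins, which act at the branch site, had a median of −0.02 and no unadjusted p below 0.05. CUS1 (YMR240C), a subunit of the SF3b complex, had 0.29, 0.35 and 0.42 in culture 1 and 0.32, 0.14 and 0.26 in culture 2. All values were above 0, with a mean of 0.30 (standard error 0.12, limma adjusted p = 0.173). RSE1, another SF3b subunit, was also higher on all 6 arrays (0.20). HSH49 (YOR319W), which binds Cus1 in the same complex, was lower on all 6 arrays, with culture means of −0.36 and −0.11 and a mean of −0.23 (limma adjusted p = 0.284). HSH155, the large SF3b subunit, had −0.02. The SF3a subunits PRP9, PRP11 and PRP21 had means of 0.05, −0.19 and −0.09, and MSL1, the U2B″ protein, had −0.11. Of these, PRP11 and PRP21 were lower on all 6 arrays, although the highest array of PRP21 was at −0.0037. MUD2, which binds the branch point region before U2 arrives, had 0.08.

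In the Prp19 complex, PRP45 (YAL032C), the ortholog of human SKIP, had 0.20, 0.15 and 0.69 in culture 1 and 0.63, 0.06 and 0.46 in culture 2. It was higher on every array, but its technical arrays spread from 0.15 to 0.69 in culture 1 and from 0.06 to 0.63 in culture 2, and the mean was 0.36 (standard error 0.12, limma adjusted p = 0.118). SYF2 (YGR129W) was lower on all 6 arrays with culture means of −0.35 and −0.12 (mean −0.23, limma adjusted p = 0.279). PRP19, the ubiquitin ligase of the complex, had a mean of −0.03, and the core proteins CEF1, SYF1 and CLF1 had −0.05, −0.01 and 0.08. Of the 7 genes of the complex, 2 had means above 0.

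By class, the medians of the culture means lay between −0.04 and 0.06. The PRP factors had −0.01 in culture 1 and 0.06 in culture 2, the Sm proteins −0.04 in culture 1 and −0.01 in culture 2, the LSm proteins 0.03 in culture 1 and 0.00 in culture 2, and the other snRNP and Prp19 complex proteins −0.03 in culture 1 and 0.00 in culture 2. All genes had −0.02 in culture 1 and 0.02 in culture 2. Sm and LSm proteins varied more among themselves (SD of the means 0.28 over 7 Sm genes and 0.21 over 7 LSm genes) than the other snRNP proteins (0.14 over 16 genes), and the PRP factors had 0.23 over 22 genes. These are descriptions of a few genes each and were not tested.

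**Figure D4:**
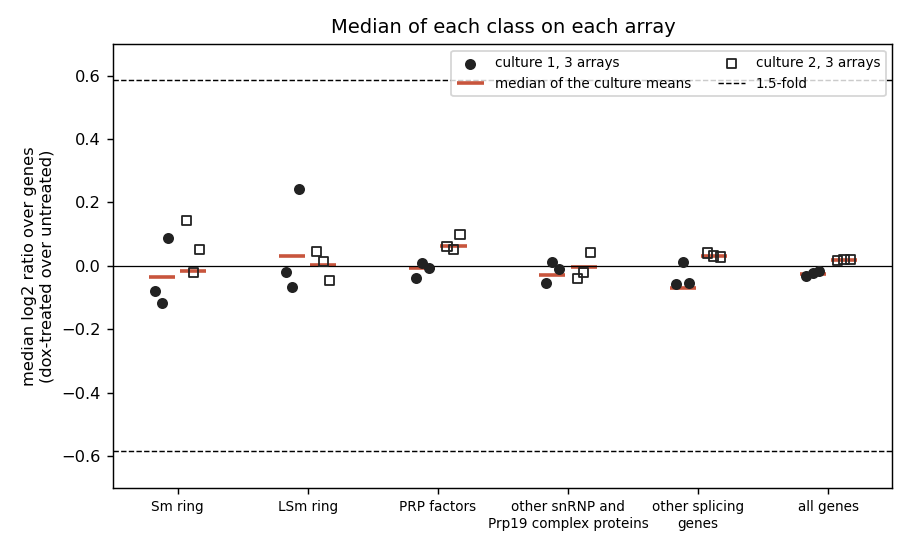
Median log2 ratio over the genes of each class (y axis) on each array, with filled circles for culture 1, open squares for culture 2, and red lines at the median of the culture means; dashed lines mark 1.5-fold. All class medians lie close to 0, and the single point that stands apart is the LSm median of 0.24 on array 3 of culture 1.

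The cultures differed from each other in some members. The cultures were set against each other in limma over 3 technical arrays each, so the test compares these 2 cultures, and the amino acid label, the experiment and the culture cannot be told apart. No member (0 of 52) had both an adjusted p below 0.05 and a difference beyond 1.5-fold, against 7.35% of the 6241 genes tested. At any fold, 5 members (9.62%) had an adjusted p below 0.05, against 22.3% of all genes. They were SNU66, PRP31, PRP38, PRP46 and LEA1, named here after their values were seen, and in each of them the arrays of culture 1 did not overlap those of culture 2. The culture means had opposite signs in 15 of 52 members (28.8%), close to the 25.9% of all genes.

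Of the 5 genes, 3 act in the tri-snRNP. SNU66 (YOR308C) had 0.37, 0.27 and 0.21 in culture 1 and −0.25, −0.05 and −0.16 in culture 2, a difference of culture 1 minus culture 2 of 0.44 (95% interval 0.23 to 0.65, limma adjusted p = 0.0118). PRP31 (YGR091W), a U4/U6 protein, ran the other way with −0.10, −0.22 and −0.29 in culture 1 and 0.16, 0.20 and 0.29 in culture 2 (difference −0.42, limma adjusted p = 0.0124). PRP38 (YGR075C), needed for spliceosome activation, also ran this way, with culture means of −0.19 and 0.18 (difference −0.38, limma adjusted p = 0.0166). PRP38 neighbors SMD1, with ends that overlap by 6 bases on opposite strands in the reference annotation. SMD1 likewise was lower in culture 1 than in culture 2 (difference −0.32, limma adjusted p = 0.0648), and a link between the genes was not tested. In the Prp19 complex, PRP46 (YPL151C) had 0.12 in culture 1 and −0.24 in culture 2 (difference 0.36, limma adjusted p = 0.0149). LEA1 (YPL213W), a U2 snRNP protein, had 0.34 in culture 1 and −0.02 in culture 2 (difference 0.35, limma adjusted p = 0.031). LEA1's partner on U2, MSL1, had −0.05 in culture 1 and −0.18 in culture 2.

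**Figure D5:**
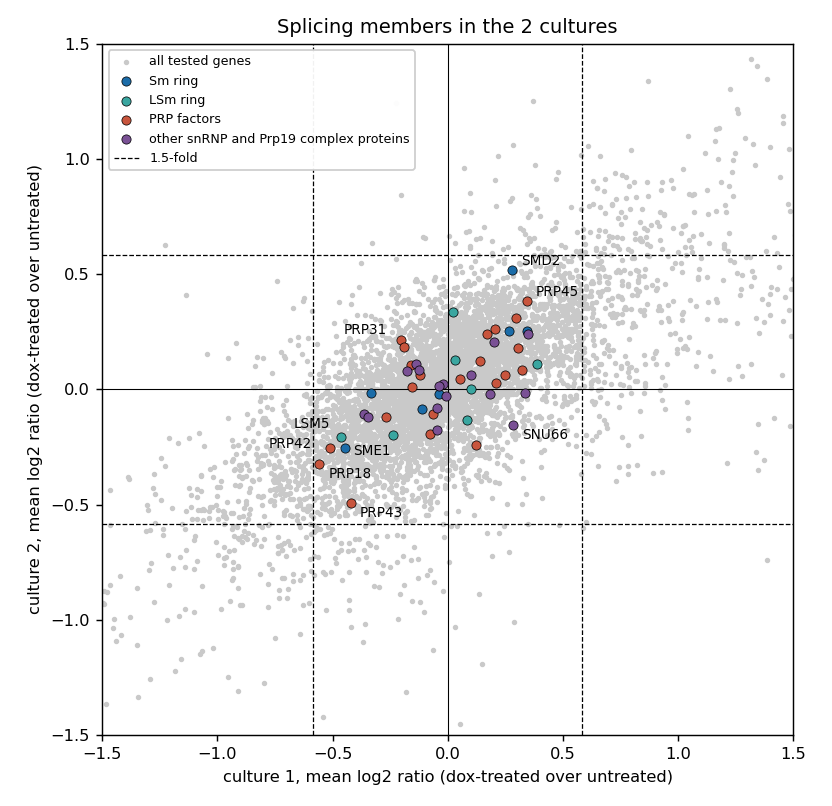
Mean log2 ratio of dox-treated over untreated cells in culture 1 (x axis) and culture 2 (y axis) for the tested members, colored by class, over all tested genes (gray); dashed lines mark 1.5-fold, and 137 genes fall outside the plotted range of 1.5 to either side of 0. No member lies beyond 1.5-fold in either culture, and PRP31 and SNU66 lie in the quadrants of opposite sign.

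The culture means of the 52 members correlated with Pearson's r = 0.64 and Spearman's rho = 0.59, against 0.67 and 0.68 over all genes. The correlation is across genes, which are not independent replicates, and the points of a culture share its arrays. The SD of the members was 0.26 in culture 1 and 0.20 in culture 2, against 0.54 and 0.40 for all genes in the same cultures.

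Other genes of the pathway gave a similar picture. Of 42 further splicing genes outside the 53, 41 were tested, as no row of the array matched YSF3. Among the 41, 0 met the criterion in limma, against 10.5% of all genes. At any fold, 4 (9.76%, against 29.1% of all genes) had an unadjusted p below 0.05 in limma. The median of their means was −0.02, and 33 of 41 intervals (80.5%) lay within 1.5-fold, against 59.8% of all genes. The 4 genes are named here after their values were seen. CWC21 (YDR482C), a spliceosome component that contacts Prp8, had −0.87, −0.77 and −0.79 in culture 1 and −0.21, −0.36 and −0.41 in culture 2. It was lower on all 6 arrays and beyond 1.5-fold in culture 1 alone, with a mean of −0.57 (standard error 0.16, limma adjusted p = 0.0882) and a difference between the cultures of −0.48 (limma adjusted p = 0.00681). BUD13 (YGL174W) and IST3 (YIR005W), members of the RES complex for pre-mRNA retention and splicing, were higher on all 6 arrays, with means of 0.39 and 0.42 (limma adjusted p = 0.102 and 0.127). IST3 had 0.24 in culture 1 and 0.61 in culture 2, beyond 1.5-fold in culture 2 alone (difference −0.37, limma adjusted p = 0.044). PML1, the other subunit of that complex, had a mean of −0.04. RDS3 (YPR094W), a small SF3b subunit, had 0.32 (limma adjusted p = 0.145). The cultures differed with an adjusted p below 0.05 in limma for 6 of the 41 genes at any fold (14.6%, against 22.3% of all genes), which were CWC21, IST3, SNP1, CBC2, BUD31 and SPP382, likewise named after their values were seen.

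The study's own list of proteins with reduced abundance in low-Hsp90 cells held the products of PRP2, PRP8, PRP28, PRP42, PRP45 and BRR2, and its list of increased proteins held none of the 53. That is 11.3% of the members on the first list, near the 8.97% of all ORFs on the array, and 0 on the second, which held 5.1% of all ORFs. The lists can hold only proteins that mass spectrometry detected, whereas these shares count all members and ORFs, detected or not. Since these lists were made from the same cultures, they are not independent of the arrays. The mRNA ratios of these 6 genes had no common direction. PRP42 had a mean of −0.38 and BRR2 of 0.00, whereas PRP2, PRP8 and PRP45 had means of 0.21, 0.30 and 0.36, and PRP28 had 0.26 in culture 1 alone. None of the 5 tested genes met the criterion for misregulated mRNA.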

How the data were processed

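The authors hybridized cDNA of dox-treated and untreated cells, each in its own Alexa Fluor dye, to homemade oligonucleotide arrays (2 cultures, 3 technical arrays each). Intensities were normalized with LOWESS (GeneSpring GX), and the deposited table, with 1 value for each ORF on an array, is taken here as log2 ratios. The scale (from a lowest value of −6.64, the log2 of 0.01) and the direction (from the sample titles) are inferred. Spot intensities and flags were not used here. The number of cultures, with 3 arrays each, limits the precision. Each array had 6180 to 6353 values, and 0 sample columns were left unused. Row names matched a RefSeq R64 locus tag for 5840 of 6377 rows.

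Technical arrays were averaged, and 2 culture means were tested against 0 (limma 3.58.1, R 4.3.3, two-sided, p-values adjusted over all 6290 genes). The cultures were compared over 3 arrays each. Both tests were checked on simulated data with 2-fold changes, which does not show how often a 1.5-fold change would be found.

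The 53 members (by name), the 42 further genes and the lists were proposed with earlier results of these data known. Genes to be named were HSC82, members or further splicing genes past a test's threshold, the 3 highest and 3 lowest of each class, and members on the study's protein lists. Other splicing genes were also described, beside genes of the same role or complex, and fall outside this rule. Alternatives were an adjusted p, other fold thresholds, arrays as replicates with or without a culture block, median centering, scale and quantile normalization, complete rows, and arrays or cultures left out. No sequences or intron annotation were used.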

Additional observations from a re-analysis of the deposited data

Results flagged for a closer look

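Among 31 sets of 6 arrays, 1 had an array far from the others by Dixon's ratio at the 95% level, a level at which chance picks about 1 set in 20. It was the median of the 7 LSm genes, which was 0.24 on array 3 of culture 1, while the other 5 arrays lay between −0.07 and 0.05.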

How the results depend on the processing

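The count of misregulated members stayed at 0 under every alternative except the one without a fold threshold, where it was 9. The count of members that differed between the cultures stayed at 0 apart from that same setting, where it was 5. Of the other splicing genes, 4 were called without a fold threshold, 0 to 1 with an array left out (CWC21, without array 1 of culture 2, mean −0.60), 1 by the fold in culture 2 alone (IST3, 0.61) and 1 by the fold in culture 1 alone (CWC21, −0.81).

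Some class medians moved by more than the SD of the culture medians. With single arrays left out, the Sm median ran from −0.0686 to 0.00595, the LSm median from 0.0107 to 0.0891 and that of the other snRNP proteins from −0.0206 to 0.00795. Culture 2 alone gave 0.0614 for the PRP factors and 0.00323 for the LSm proteins, and culture 1 alone gave 0.0301 for the LSm proteins.

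For 27 named genes, 439 of 456 values kept direction and call, 9 passed p below 0.05 without a fold threshold, and 8 changed sign. LSM3 ran from −0.0818 to 0.0148 with single arrays left out and had 0.0846 in culture 1 alone. LEA1 had −0.0171 in culture 2 alone. BRR2 ran from −0.0242 to 0.0208 with single arrays left out, and had −0.0217 in culture 1 alone and −0.00265 after quantile normalization. The cause was not tested. The call includes the fold threshold, which no member's mean reached, so most settings left it little room to change. With single arrays left out, the unadjusted p from limma rose above 0.05 for PRP42 (up to 0.0629), PRP45 (0.0679), PRP8 (0.0621), SMD3 (0.0731) and LSM5 (0.0908). It stayed below 0.05 for PRP43, PRP18, SME1 and SMD2. The number of calls over all genes ranged from 181 with a 2-fold threshold to 1833 with none. Each ratio already pairs treated and untreated RNA of a culture. No paired analysis was possible beyond that, because all ratios belong to 1 group. With 2 cultures, changes smaller than the interval of about 0.30 to either side of a member's mean cannot be resolved.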
